A study of Rattus norvegicus with 10 samples.

Results

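Chemokines and inflammatory secreted factors were described here across rat retinal pigment epithelium cells exposed to ligands of the α7 nicotinic acetylcholine receptor. The 9 genes were chosen by name, with earlier results of these data known, and looked up by the gene name in the deposited tables. They were the chemokines Cxcl1, Cxcl2, Ccl2, Ccl7 and Ccl20, the cytokines Il6, Lif and Csf1, and the protease inhibitor Serpinb2. Of these 9, 7 had values, each in all 39 deposited tables, among 14119 genes listed in all. Ccl20 and Il6 were listed in 0 tables and so were not measured. The cells were RPE-J, a Long-Evans rat line transformed with SV40, and polyA-selected RNA was sequenced in 10 libraries, 1 per condition. PNU-282987 (PNU from here on), an α7 agonist, was given at 100 nM for 30 min, 1 h, 3 h, 8 h or 12 h. Nicotine, the positive control for receptor activation, was given at 1 µM for 1 h or 12 h, MLA, the negative control, at 100 nM for 1 h or 12 h, and the vehicle DMSO for 12 h. Trypsin was used to lift all cells before lysis, and the vehicle was sampled at no other time.

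Chemokines are small secreted proteins that steer leukocytes along a gradient: CXC members such as Cxcl1 and Cxcl2 act mainly on neutrophils, and CC members such as Ccl2 and Ccl7 on monocytes. Lif and Il6 are cytokines that signal through gp130 to STAT proteins, Csf1 keeps macrophages alive, and Serpinb2 inhibits the urokinase-type plasminogen activator. Retinal pigment epithelium forms part of the barrier between retina and choroid and is a known source of Ccl2 and of other chemokines when inflamed. Transcription of Cxcl1, Cxcl2, Ccl2 and Il6 is classically driven by NF-kB, a factor that binds kappaB sites near the start of the gene, often together with AP-1 factors of the Fos and Jun families.

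The bases just upstream of 4 measured genes are shown to set the CXC chemokines Cxcl1 and Cxcl2 beside Ccl7 and Serpinb2. Windows of Ccl2, Lif and Csf1 were not used here, so motifs and patterns over the libraries cannot be linked. The windows are the 250 bases before the RefSeq gene start in build GRCr8, read 5′ to 3′ along the gene: chr14:17479322-17479571 (minus strand) for Cxcl1, chr14:17467256-17467505 (minus strand) for Cxcl2, chr10:67513845-67514094 (plus strand) for Ccl7 and chr13:24055771-24056020 (plus strand) for Serpinb2. Capitals mark matches on either strand to kappaB, searched as GGG, any 2 bases, then TTTCC, and to AP-1, searched as TGANTCA; these motifs overlapped nowhere in these windows.
Cxcl1: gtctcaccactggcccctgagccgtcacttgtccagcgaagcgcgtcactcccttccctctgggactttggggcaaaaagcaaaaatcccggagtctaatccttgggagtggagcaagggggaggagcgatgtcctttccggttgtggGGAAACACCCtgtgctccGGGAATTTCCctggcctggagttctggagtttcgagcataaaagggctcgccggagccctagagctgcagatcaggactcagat
Cxcl2: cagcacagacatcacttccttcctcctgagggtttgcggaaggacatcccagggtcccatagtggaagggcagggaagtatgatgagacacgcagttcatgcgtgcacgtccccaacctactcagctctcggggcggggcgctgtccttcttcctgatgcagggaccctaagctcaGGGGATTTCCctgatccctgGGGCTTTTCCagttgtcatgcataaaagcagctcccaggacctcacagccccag
Ccl7: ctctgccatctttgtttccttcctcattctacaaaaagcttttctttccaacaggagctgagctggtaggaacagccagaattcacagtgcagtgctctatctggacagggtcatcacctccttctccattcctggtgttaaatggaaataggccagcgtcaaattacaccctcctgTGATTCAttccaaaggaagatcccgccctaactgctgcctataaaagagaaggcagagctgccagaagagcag
Serpinb2: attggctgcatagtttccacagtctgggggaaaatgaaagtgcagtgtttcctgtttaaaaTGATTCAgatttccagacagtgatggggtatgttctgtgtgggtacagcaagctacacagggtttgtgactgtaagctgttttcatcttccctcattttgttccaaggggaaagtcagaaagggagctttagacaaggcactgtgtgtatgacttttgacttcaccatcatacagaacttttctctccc
Cxcl1 held 2 kappaB matches, at bases -102 to -93 (minus strand) and -84 to -75 before the start. Cxcl2 also held 2, at -74 to -65 and -54 to -45. Among 33469 rat windows of the same length, 1.3% held at least 1 such match and 0.0209% held 2 or more. Ccl7 and Serpinb2 held no kappaB match and 1 AP-1 match each, at -73 to -67 in Ccl7 and at -189 to -183 in Serpinb2, a motif found in 6.34% of windows. Of the genes without a value, Il6 and Ccl20 held 1 kappaB match each. With a looser kappaB pattern (GGG, any 5 bases, then CC), found in 42.3% of windows, Ccl7 also held a match, at -59 to -50. The other motifs searched were the CRE core TGACGT (6.95% of windows), C/EBP as TTGC, any 2 bases, then AA (9.22%), and TATAAA (12.9%). A loose form of CArG was also searched, as CC, any 6 bases, then GG (65.1%), without limiting the 6 bases to A and T. The windows shown held a C/EBP match in Cxcl2 and a TATAAA match in Ccl7. The loose CArG form matched in Cxcl1, Cxcl2 and Ccl7, each time with C or G among the 6 middle bases, so none is a strict CArG box. A match is a run of letters, and binding was not measured. By the reference table Cxcl1 lies next to Cxcl2 on chromosome 14, and Ccl2 next to Ccl7 on chromosome 10, among protein-coding genes.

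The deposited tables held 15220638 (PNU 8 h) to 31510333 (MLA 12 h) reads in listed genes per library. A level below is the number of reads of a gene after all 10 libraries were put on the same scale; it was not divided by gene length, so levels of different genes are not compared. Intervals in brackets are 95% intervals that cover counting error only, since each condition had 1 library and no difference between 2 libraries has a replicate check. A difference is said to pass the size rule when it is at least 2-fold and the mean level of the 2 libraries is at least 50. Among all 45 pairs of libraries, a median of 41 genes passed this rule; nicotine 1 h stood apart with a median of 152 against the other libraries, followed by PNU 3 h with 52 and DMSO 12 h with 51. Of 17 epithelial markers 7 had values, Best1, Mitf, Pmel and Krt8 among them, whereas Rpe65, Lrat and Ttr had none. Of 13 markers of macrophages and other immune cells 6 had values, with a summed level between 863 and 995: Cd14 stood between 554 and 716, Ptprc between 71.0 and 124 and Cd68 between 83.1 and 162, while Adgre1, Itgam and Tyrobp had none. Of 7 fibroblast markers 2 had values, Col1a1 between 21567 and 48454 and Col3a1 between 8434 and 12703, whereas Col1a2, Pdgfra, Dcn, Lum and Thy1 had none. Of 5 endothelial markers 4 had values, 0 of them at a mean level of 50, and Pecam1 had none. A change in cell number of some type and a change of RNA per cell cannot be told apart in such bulk RNA.

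Over the 10 libraries, 6 of the 7 measured genes spanned at least 2-fold between their highest and lowest level, as did 5.99% of the 11190 genes with a mean level no lower than 50. The median span was 2.31-fold for the 7 genes and 1.38-fold for all genes. Because the genes were chosen with earlier results of these data known, setting them beside all genes is a description and not a test. The 7 genes fell into a pair of patterns. Ccl2, Ccl7 and Serpinb2 had their 4 highest levels in PNU 8 h, MLA 12 h and both nicotine libraries. Csf1 ran alike over a narrower span, except that PNU 30 min lay above nicotine 12 h. Cxcl1 and Lif were highest in DMSO 12 h and lowest in PNU 1 h, and Cxcl2 had its lowest level in PNU 1 h as well. Without PNU 1 h the count was 3 of 7 (Ccl2, Ccl7 and Serpinb2), beside 5.73% of genes, and without DMSO 12 h it was 4 of 7 (Cxcl1, Cxcl2, Ccl2 and Ccl7), beside 5.52%. Without nicotine 1 h and PNU 3 h it was 6 of 7, beside 2.03%.

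**Figure D1:**
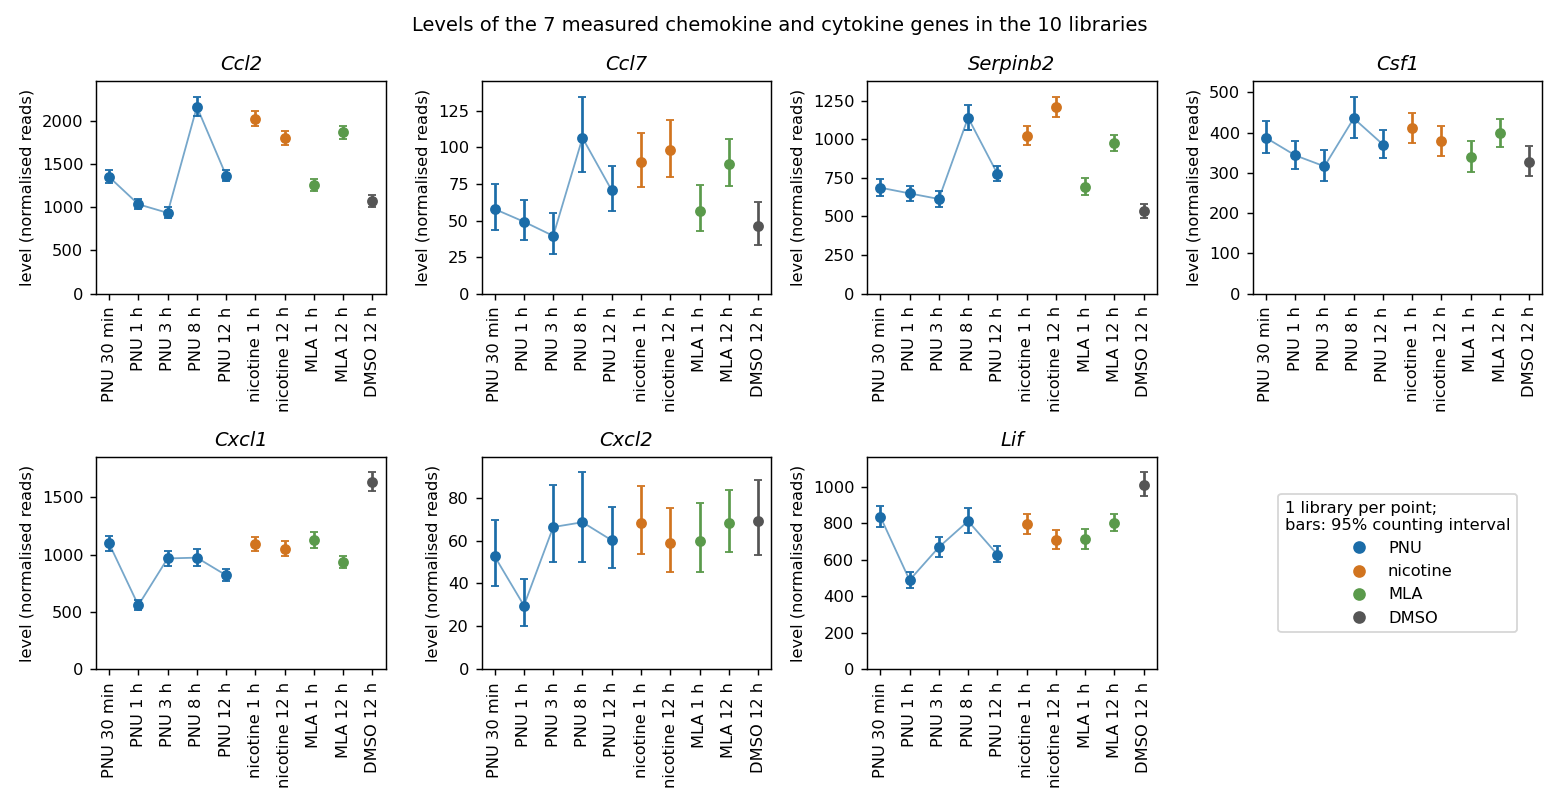
Level in normalised reads (vertical axes, each starting at 0) of the 7 measured genes in each of the 10 libraries (horizontal axes); each point is 1 library, bars are 95% Poisson intervals of its reads, and a line joins the PNU times. The upper row shows the peak of the PNU course at 8 h, where Ccl2 reached 2162, and the lower row the low level in PNU 1 h, where Cxcl1 was at 558.

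Ccl2 (ENSRNOG00000007159), the monocyte attractant also called MCP-1, had levels of 1351, 1034, 935, 2162 and 1367 after 30 min, 1 h, 3 h, 8 h and 12 h of PNU. It stood at 2025 in nicotine 1 h, 1797 in nicotine 12 h, 1253 in MLA 1 h, 1865 in MLA 12 h and 1071 in DMSO 12 h. The levels thus lay in 2 bands, 4 libraries between 1797 and 2162 and 6 between 935 and 1367, and each band held libraries of PNU and of MLA. In PNU the course was not steady: Ccl2 was 2.31-fold higher at 8 h than at 3 h [2.12 to 2.53], and 1.58-fold lower at 12 h than at 8 h [1.47 to 1.70]. Of the 3 libraries that differed from the others in the most genes, nicotine 1 h had the second highest level of Ccl2, and PNU 3 h and DMSO 12 h had the lowest and the third lowest; the part of those differences in the result was not tested.

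Ccl7 (ENSRNOG00000000239), also called MCP-3 and likewise a monocyte attractant, followed the same course at low read numbers, between 34 reads in PNU 3 h and 120 in MLA 12 h. Its levels were 57.9, 49.2, 39.5, 107 and 70.7 after 30 min, 1 h, 3 h, 8 h and 12 h of PNU. They were 90.1 and 98.0 in nicotine at 1 h and 12 h, 56.7 and 88.6 in MLA at 1 h and 12 h, and 46.4 in DMSO 12 h. No step between neighbours in the order of levels was wider than the counting intervals, although the ends of the order were apart, 2.70-fold [1.77 to 4.19].

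Serpinb2 (ENSRNOG00000002460) had levels of 686, 649, 613, 1139 and 777 after 30 min, 1 h, 3 h, 8 h and 12 h of PNU. It stood at 1023 and 1207 in nicotine at 1 h and 12 h, at 693 and 974 in MLA at 1 h and 12 h, and at 533 in DMSO 12 h. The vehicle library was the lowest of the 10 and nicotine 12 h the highest, 2.26-fold apart [2.04 to 2.51]. The same 4 libraries as for Ccl2 held its 4 highest levels, set off from the other 6 by the gap between 777 and 974.

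Csf1 (ENSRNOG00000018659), the macrophage growth factor, varied least, 1.38-fold between PNU 8 h at 436 and PNU 3 h at 316. In PNU it stood at 387, 344, 316, 436 and 370 from 30 min to 12 h, in nicotine at 410 and 379 and in MLA at 339 and 398 at 1 h and 12 h, and in DMSO 12 h at 327. Its order resembled that of Ccl2, and no neighbouring levels in that order were farther apart than their counting intervals.

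Cxcl1 (ENSRNOG00000002802), the neutrophil attractant, had levels of 1096, 558, 966, 973 and 820 after 30 min, 1 h, 3 h, 8 h and 12 h of PNU. It stood at 1091 and 1052 in nicotine at 1 h and 12 h, at 1123 and 934 in MLA at 1 h and 12 h, and at 1631 in DMSO 12 h. The vehicle library lay above each of the other 9 and PNU 1 h below each of them, both by more than the counting intervals; the remaining 8 spanned 820 to 1123. PNU 1 h was 1.96-fold below PNU 30 min [1.78 to 2.18], and PNU 3 h was 1.73-fold above PNU 1 h [1.56 to 1.93].

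Lif (ENSRNOG00000007002), the gp130 cytokine, had levels of 837, 488, 669, 812 and 629 after 30 min, 1 h, 3 h, 8 h and 12 h of PNU. It stood at 795 and 708 in nicotine at 1 h and 12 h, at 712 and 802 in MLA at 1 h and 12 h, and at 1011 in DMSO 12 h. As for Cxcl1, DMSO 12 h was the highest and PNU 1 h the lowest of the 10, each set apart from its neighbour by more than the counting intervals.

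Cxcl2 (ENSRNOG00000002792), a close relative of Cxcl1, had few reads, between 32 in PNU 1 h and 92 in MLA 12 h. Its level was 29.7 in PNU 1 h [20.3 to 41.9] and between 52.6 and 68.5 at the other PNU times. It was 68.2 and 58.8 in nicotine at 1 h and 12 h, 59.9 and 68.0 in MLA at 1 h and 12 h, and 69.1 in DMSO 12 h. PNU 1 h was the lowest, its interval overlapping that of PNU 30 min [39.1 to 69.4], and no step between neighbours in the order was wider than the counting intervals. Reads of near-identical stretches of Cxcl1 and Cxcl2 may be shared in counting, which was not tested.

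Within the PNU course, Cxcl2, Ccl2 and Ccl7 spanned at least 2-fold over the 5 libraries, 3 of the 7 genes, as did 1.77% of all genes tested. Between successive times, 2 genes passed the size rule, Ccl2 and Ccl7, both higher at 8 h than at 3 h; 0.446% of genes were higher by that rule in this step. At 1 h against 30 min, 0 of the 7 passed the rule, beside 0.0716% of genes in either direction. At 3 h against 1 h (0.447% of genes), at 12 h against 8 h (0.277%) and at 12 h against 1 h (0.224%) the count was also 0; Cxcl2 was 2.23-fold higher at 3 h than at 1 h [1.42 to 3.55] but fell under the minimum level. At 8 h against 3 h, Cxcl1 and Cxcl2 differed by less than the counting intervals, at 973 in PNU 8 h against 966 in PNU 3 h for Cxcl1. The PNU 8 h library had the fewest reads of the series.

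**Figure D2:**
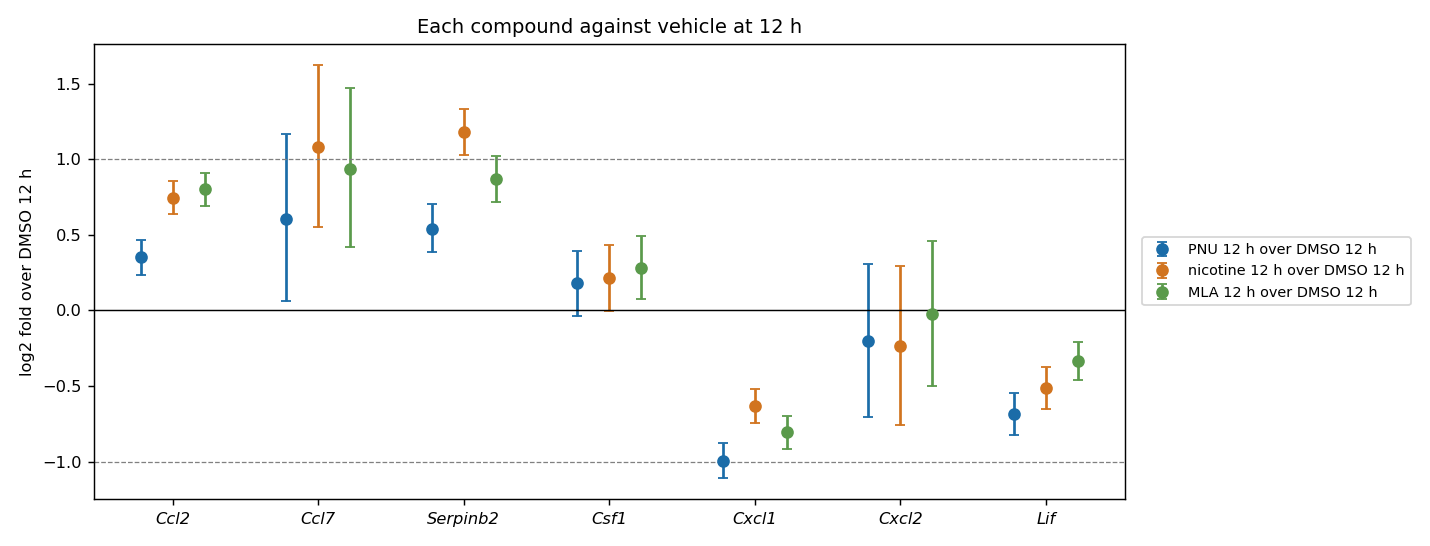
Log2 fold (vertical axis) of PNU, nicotine and MLA at 12 h over DMSO at 12 h for the 7 genes (horizontal axis); points are single pairs of libraries, bars are 95% counting intervals, dashed lines mark 2-fold. Ccl2, Ccl7, Serpinb2 and Csf1 lie above 0 and Cxcl1 and Lif below 0 for each compound. The intervals of Cxcl2 cross 0, as do those of Csf1 in PNU and nicotine. Serpinb2 in nicotine lies at 1.18 and Cxcl1 in PNU at -0.99.

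The comparison with vehicle at the matched time asked what each ligand did relative to DMSO at 12 h. In PNU 12 h, 0 of the 7 genes passed the size rule, beside 0.555% of genes in either direction. Cxcl1 came nearest, at 820 in PNU 12 h against 1631 in DMSO 12 h, 1.99-fold lower. In nicotine 12 h, 2 of 7 passed it in the upward direction, beside 0.126% of genes: Serpinb2, at 1207 in nicotine 12 h against 533 in DMSO 12 h, was 2.26-fold higher, and Ccl7, at 98.0 in nicotine 12 h against 46.4 in DMSO 12 h, was 2.11-fold higher [1.47 to 3.08]. In MLA 12 h, 0 of 7 passed it, beside 0.366% of genes, with Ccl7 1.91-fold and Serpinb2 1.83-fold higher. In all 3 comparisons Ccl2, Ccl7, Serpinb2 and Csf1 had log2 folds above 0 and Cxcl1 and Lif below 0; the 3 share the single vehicle library, so these directions are not independent of each other. Cxcl2 had log2 folds of -0.20 for PNU, -0.23 for nicotine and -0.02 for MLA, with counting intervals across 0. The counting intervals of Csf1 also crossed 0 in PNU and nicotine. The value of Cxcl2 in MLA turned to 0.00636 with reads scaled to the same total. With PNU 30 min in its place the log2 fold of Cxcl1 was -0.42 for PNU 12 h, -0.06 for nicotine 12 h and -0.23 for MLA 12 h. Against that library Cxcl2 turned to 0.19, 0.16 and 0.37 in PNU, nicotine and MLA at 12 h, and Csf1 to -0.06 in PNU and -0.03 in nicotine, so the split between higher and lower genes did not hold with this comparator.

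The remaining libraries could be set against vehicle only across times. In PNU 1 h, 2 genes passed the rule in the downward direction, beside 0.233% of genes: Cxcl1 was 2.92-fold lower [2.66 to 3.22], at 558 in PNU 1 h against 1631 in DMSO 12 h, and Lif was 2.07-fold lower [1.86 to 2.31], at 488 in PNU 1 h against 1011 in DMSO 12 h. Cxcl2 was 2.33-fold lower there, under the minimum level. In PNU 8 h, 3 genes passed it in the upward direction, beside 0.215% of genes: Ccl7 was 2.30-fold, Serpinb2 2.14-fold and Ccl2 2.02-fold higher. In PNU 30 min (0.0537% of genes), PNU 3 h (0.465%), nicotine 1 h (1.36%) and MLA 1 h (0.251%) the count was 0. In nicotine 1 h, Ccl2, Ccl7 and Serpinb2 were 1.89-fold, 1.94-fold and 1.92-fold higher.

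Because both groups of genes were counted in the same library, their ratio needs no scaling. There were 2.22 reads of Ccl2 per read of Cxcl1 in PNU 8 h [2.02 to 2.44], and 1.23, 1.85, 0.968 and 1.67 in PNU at 30 min, 1 h, 3 h and 12 h. The ratio was 1.86 and 1.71 in nicotine at 1 h and 12 h, 1.12 and 1.998 in MLA at 1 h and 12 h, and 0.657 in DMSO 12 h [0.606 to 0.712]. It was lowest in the vehicle, where Cxcl1 was highest, and its size within a library also depends on the lengths of the transcripts.

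At matched times the compounds were compared in 6 pairs of libraries; nicotine was given at a dose 10-fold above the others, so its pairs differ in dose as well as compound. PNU 1 h against MLA 1 h had 1 gene past the size rule, Cxcl1, at 558 in PNU 1 h against 1123 in MLA 1 h, 2.01-fold lower [1.82 to 2.23], beside 0.0717% of genes lower. Against nicotine 1 h, 0 of 7 passed in PNU 1 h (1.28% of genes did); Cxcl2 was 2.30-fold lower, at 29.7 in PNU 1 h against 68.2 in nicotine 1 h, just under the minimum level, Ccl2 by 1.96-fold, at 1034 in PNU 1 h against 2025 in nicotine 1 h, and Cxcl1 by 1.95-fold. Nicotine 1 h against MLA 1 h also gave 0 of 7, beside 2.45% of genes. Ccl2 was 1.62-fold higher there [1.51 to 1.73], at 2025 in nicotine 1 h against 1253 in MLA 1 h, while Cxcl1 was 0.97-fold [0.89 to 1.06].

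At 12 h none of the 7 genes passed the rule in the 3 pairs of compounds. PNU 12 h against MLA 12 h gave 0 of 7, beside 0.116% of genes, with Ccl2 at 1367 in PNU 12 h against 1865 in MLA 12 h, 1.36-fold lower. PNU 12 h against nicotine 12 h gave 0 of 7, beside 0.429% of genes, and Serpinb2 was the farthest apart, 1.55-fold lower in PNU. Nicotine 12 h against MLA 12 h gave 0 of 7 and 0% of genes. Ccl2 was there at 0.96-fold in nicotine over MLA, with a counting interval of 0.91 to 1.02, and Serpinb2 was 1.24-fold higher in nicotine [1.15 to 1.34].

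**Figure D3:**
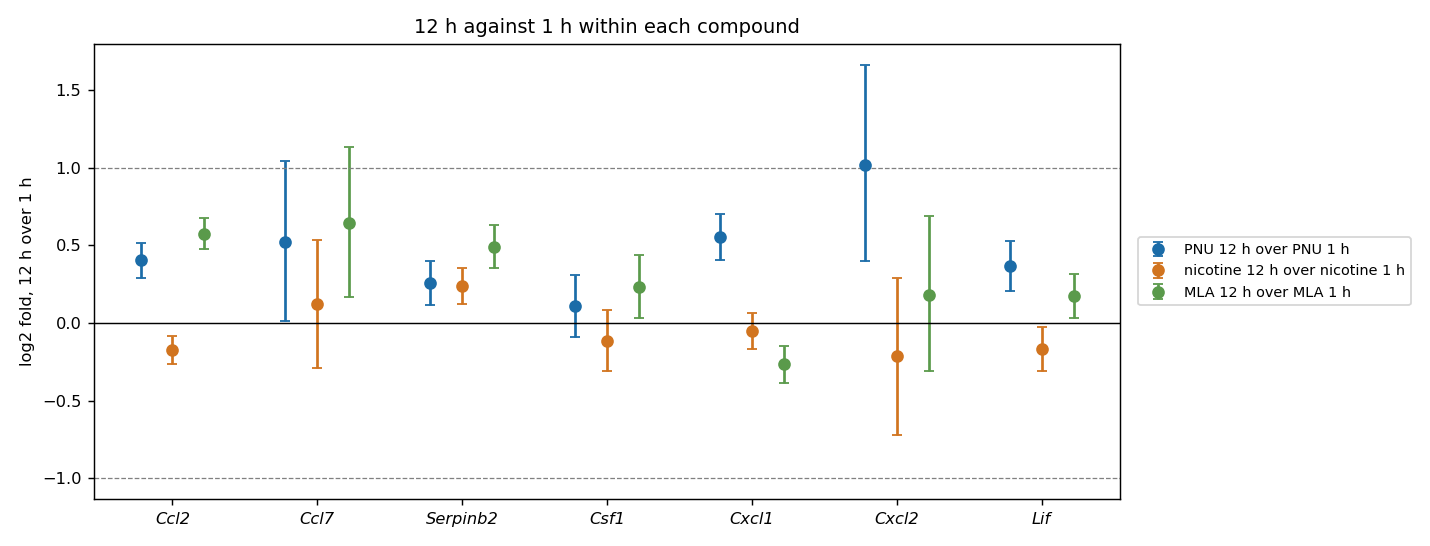
Log2 fold of 12 h over 1 h (vertical axis) for the 7 genes (horizontal axis) in PNU, nicotine and MLA; points are single pairs of libraries, bars are 95% counting intervals, dashed lines mark 2-fold. Serpinb2 lies above 0 in each compound, whereas Cxcl1 lies at 0.55 in PNU and -0.27 in MLA.

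Libraries of different conditions, which are not replicates, were pooled in 2 comparisons, 12 h against 1 h over the 3 compounds and the agonists against MLA over both times. For the first, a limma fit over 6 libraries had compound as a term. In it 0 of 13326 genes passed an adjusted p of 0.05 in either direction (0%), and 102 had an unadjusted p under 0.05. The spread in this fit is what compound and time leave, over 2 residual degrees of freedom before moderation. It includes any difference between compounds in the change over time. All 7 estimates were above 0, but Cxcl1 and Cxcl2 turned below 0 without PNU (-0.16 and -0.0159) and Csf1 without MLA (-0.00325). Serpinb2 had a log2 fold of 0.33 (SE 0.12), an unadjusted p of 0.0322 and an adjusted p of 0.99997; it was higher at 12 h in 3 of 3 compounds. Ccl7 had a log2 fold of 0.42 (SE 0.19), also higher in 3 of 3, with an adjusted p of 0.99997 in limma. Without nicotine, whose 1 h library stood apart, limma called 120 genes higher (0.902%) and 334 lower (2.51%), Ccl2 (0.49, adjusted p = 3.61e-07) and Serpinb2 (0.37, adjusted p = 0.00317) among the higher; that fit had 1 residual degree of freedom and rested on a spread pooled over genes. Between single pairs, 0 of 7 passed the size rule in nicotine 12 h against 1 h, beside 2.62% of genes, and in MLA 12 h against 1 h, beside 0.152%. The contrast of the agonists with MLA over both times, in the same fit, called 0 genes (0%), with 69 at an unadjusted p under 0.05, and gave Cxcl1 a log2 fold of -0.27 (SE 0.19) and Ccl2 of -0.02 (SE 0.17).

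The authors' deposited tables gave the 7 genes an adjusted p-value in 273 rows, the lowest being 0.999715. Among those rows 18 had an unadjusted p-value under 0.05 in the authors' deposited tables, the lowest, 0.0170, for Serpinb2. Over all genes, the number with such a p-value differed by pair of libraries. It lay between 0 of 13410 (PNU 8 h and MLA 12 h) and 185 of 13438 (PNU 30 min and nicotine 1 h). The 273 rows reuse the same 10 libraries, so the 18 are not separate results. Each of those tables sets 1 library against 1, so they hold no estimate of spread between replicates.

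**Figure D4:**
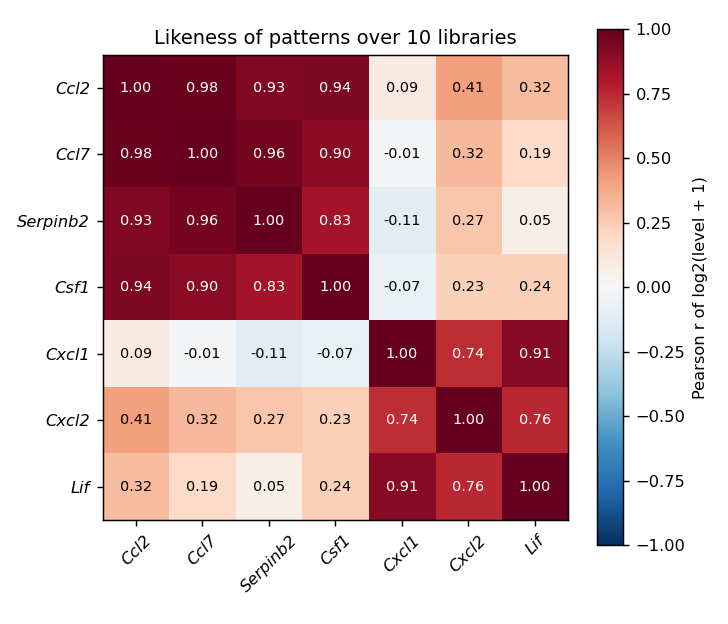
Pearson r of log2(level + 1) between each pair of the 7 genes over the 10 libraries (color, value printed in each cell). Ccl2, Ccl7, Serpinb2 and Csf1 form a block with r between 0.83 and 0.98, and Cxcl1 and Lif reached 0.91.

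The likeness of patterns was described by Pearson r of log2(level + 1) over the 10 libraries, which share scaling, and no p is given because the levels fall into bands. Ccl2 and Ccl7 had r = 0.98, and Ccl7 and Serpinb2 had r = 0.96. Without the 2 libraries farthest from the median of the first gene named, which differ by gene, these were 0.97 and 0.98. Cxcl1 and Lif had r = 0.91, which became 0.50 without the 2 farthest libraries, PNU 1 h and DMSO 12 h. Cxcl1 and Cxcl2 had r = 0.74, which became -0.27, so that likeness rests on those libraries. Between Ccl2, Ccl7, Serpinb2 or Csf1 on the one side and Cxcl1, Cxcl2 or Lif on the other, r lay between -0.11 (Cxcl1 and Serpinb2) and 0.41 (Cxcl2 and Ccl2). Without the 2 farthest libraries Lif and Csf1 reached 0.69, so the groups were less distinct there. Among 3106 genes with a span of at least 1.5-fold, those most like Cxcl1 were Dusp6, Lif and Nfkbiz. Dusp6, an ERK phosphatase induced by ERK signaling itself, was also the gene most like Lif (r = 0.95); it stood at 1838 in PNU 1 h and at 4951 in DMSO 12 h. Those most like Lif after it were Cxcl1 and Errfi1, and those most like Cxcl2 were Snx32, Dusp6 and Vom2r44. Without the 2 libraries farthest from the median of Cxcl1, Cxcl2 or Lif, the r of Dusp6 was 0.56 with Cxcl1, 0.58 with Cxcl2 and 0.90 with Lif. That of Vom2r44 with Cxcl2 was -0.10. The libraries left out were PNU 1 h and DMSO 12 h for Cxcl1 and Lif, and PNU 1 h and PNU 30 min for Cxcl2. The genes most like Ccl2 were Ccl7, Ripk4 and Serpinb2, and the same set with Ccl2 in place of Ccl7 led for Ccl7. Serpinb2 was nearest to Ccl7, Ror1 and the matrix proteoglycan gene Vcan, and Csf1 to Oxsm, Ccl2 and Jph2.

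**Figure D5:**
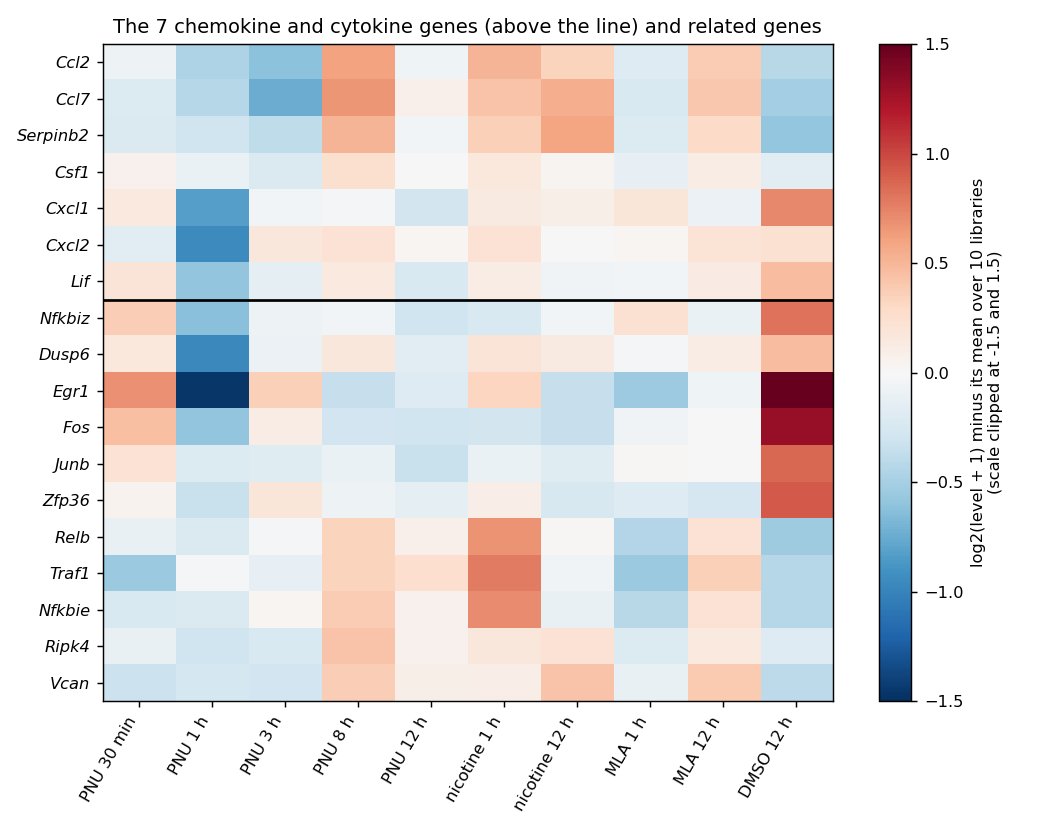
Color gives log2(level + 1) minus its mean over the 10 libraries, clipped at -1.5 and 1.5, for the 7 genes (above the line) and 11 related genes (rows) in each library (columns). DMSO 12 h is high for Cxcl1, Lif, Nfkbiz, Egr1, Fos, Junb and Zfp36, and PNU 1 h is low for most of these, while Relb, Traf1 and Nfkbie are highest in nicotine 1 h.

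Related regulators, with their feedback genes and targets, were followed by list. Of 30 NF-kB subunits, feedback genes and targets 29 were measured, and 5 of the 26 at the minimum level spanned at least 2-fold, with a median span of 1.47-fold. In nicotine 1 h against DMSO 12 h, 3 were higher and 1 lower by the size rule, in a library where 1.36% of all genes passed it: Traf1, an adaptor of TNF receptors, was 2.33-fold higher, the subunit Relb 2.32-fold and the inhibitor Nfkbie 2.22-fold. Relb stood at 1357 in nicotine 1 h, 861 in nicotine 12 h and 585 in DMSO 12 h. Nfkbiz, which encodes a nuclear co-activator of NF-kB, ran the other way: it stood at 509 in PNU 1 h and at 1381 in DMSO 12 h, 2.71-fold lower, and was also past the rule in PNU 12 h and nicotine 1 h. In PNU 8 h against DMSO 12 h, 0 of the 26 were higher by the rule, beside 0.215% of all genes. In the downward direction, whose share of all genes is not given, the count was also 0.

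Of 13 AP-1, C/EBP and related factors 12 were measured, and 5 of the 11 at the minimum level spanned at least 2-fold, each with DMSO 12 h as the highest library. In PNU 1 h against DMSO 12 h, 3 were lower and 0 higher by the size rule, beside 0.233% of all genes lower. The immediate early gene Egr1 stood at 667 in PNU 1 h against 5461 in DMSO 12 h, 8.19-fold lower, Fos at 105 in PNU 1 h against 394 in DMSO 12 h, 3.76-fold lower, and Junb was 2.10-fold lower. Egr1 and Fos passed the rule also in MLA 12 h, at 3.11-fold and 2.47-fold lower than in DMSO 12 h, so the vehicle library was high against the negative control as well. Zfp36, which speeds the decay of cytokine transcripts, was past the rule, lower than in DMSO 12 h, in MLA 1 h, MLA 12 h, nicotine 12 h, PNU 1 h and PNU 12 h; it was at 332 in PNU 1 h and at 790 in DMSO 12 h. Like Cxcl1 and Lif, Egr1, Fos and Zfp36 were highest in DMSO 12 h and lowest in PNU 1 h, while Junb was lowest in PNU 12 h. The likeness did not hold in each library. In MLA 1 h Cxcl1 had its second highest level, 1123, whereas Egr1 stood at 1255.5, below its 2288 in nicotine 1 h. The part of these immediate early genes in the result was not tested.

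Other secreted factors were followed in the same way. Of 29 other chemokines 8 were measured and 5 reached the minimum level; only Cxcl14 among these 5 spanned 2-fold, between 93.7 in nicotine 1 h and 46.3 in PNU 30 min. Cxcl16 spanned 1.62-fold, between 7975 in nicotine 1 h and 4924 in DMSO 12 h. Of 37 other cytokines and secreted factors 20 were measured, 15 of them at the minimum level, with a median span of 1.58-fold. Against DMSO 12 h, 0 genes of these 2 lists passed the size rule in PNU 1 h, PNU 8 h, PNU 12 h, nicotine 1 h or nicotine 12 h.

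Receptors for these factors were measured for 6 of 15. Cxcr1, Cxcr2, Ccr1 and Ccr2 had no value. Il6st, which encodes gp130, stood between 1865 in PNU 8 h and 1129 in DMSO 12 h, and Lifr, its partner for Lif, between 44.7 in PNU 12 h and 84.1 in MLA 1 h. Csf1r, the receptor of Csf1, was between 8.93 in PNU 12 h and 18.6 in PNU 3 h. The scavenging receptor Ackr3 was between 1820 in nicotine 1 h and 3543 in MLA 1 h. Of 14 gp130, JAK and STAT genes 14 were measured, with a median span of 1.28-fold and 0 past 2-fold.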

How the data were processed

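PolyA-selected RNA from 10 conditions was sequenced, 1 library each. Per the submitters' processing notes the tools were Trimmomatic 0.36, STAR 2.5.2b, featureCounts of Subread 1.5.2 and DESeq2; the genome build they used is not given in the sources used here. There are 39 tables of 2 libraries each, in which the authors deposited, by gene, the log2 fold change with its p-value and adjusted p-value, and a level per library. The level is a signal that the authors' deposited values show to be reads divided by a size factor set anew in each table: dividing by the column's step gave numbers within 0.01 of whole in 100% of cases, with 0 conflicts between tables. The tables list 13015 to 13781 genes each, with lowest mean levels of 8.32 to 10.5. Columns carry library numbers; 9 are tied to samples by the file records, and the last was taken, by elimination, for PNU 12 h.

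These read numbers are inferred from the levels, so no count model was run on them, and counting intervals rest on that inference. The reads were scaled over all libraries by the median of ratios over 13391 genes with reads in all 10. Members and lists were chosen with earlier results of these data known. Fold intervals are Clopper-Pearson and level intervals Poisson, both at 95%; reads without molecular identifiers are not independent molecules. The size rule (2-fold, mean level 50) was applied to 22 comparisons of 2 libraries. limma 3.58.1 in R 4.3.3 was fitted with trend to log2(level + 1) at a mean level of at least 10, adjusted by Benjamini-Hochberg over all genes; nothing says that libraries came from separate cultures, so its p-values measure the spread between these samples only. Both procedures were tested on simulated data. Named genes were the members, up to 4 genes per list past the size rule, and per gene the 3 most alike among genes with a mean level of at least 50 and a span of at least 1.5-fold; other related genes, receptors and markers were named after their values were seen. Alternatives were other scalings, fold and level minimums, pseudocounts, PNU 30 min as the comparator, and fits without a compound. Motifs were searched in RefSeq windows (GRCr8) that held 6 of the 9 genes.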

Additional observations from a re-analysis of the deposited data

Results flagged for a closer look

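For 3 genes the log2 fold of 12 h over 1 h lay on opposite sides of 0 in different compounds, each with a counting interval clear of 0. Cxcl1 stood at 0.55 in PNU and -0.27 in MLA. Ccl2 stood at 0.40 in PNU, 0.57 in MLA and -0.17 in nicotine. Lif stood at 0.36 in PNU, 0.17 in MLA and -0.17 in nicotine. Each value rests on 1 pair of libraries, and the difference between compounds was not tested. For Ccl2 and Lif the opposite value is that of nicotine, whose 1 h library differed from the others in a median of 152 genes.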

How the results depend on the processing

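For PNU 12 h against DMSO 12 h the count was 0 as reported, and 1 with reads scaled to the same total, 1 with the levels of the deposited table and 3 at a 1.5-fold minimum. For nicotine 12 h it was 2, and 4 at 1.5-fold and 0 against PNU 30 min. For MLA 12 h it was 0, and 4 at 1.5-fold. In the PNU course the count of genes was 3, and 6 at 1.5-fold. For compounds at matched times it was 1 of 42 values (genes times pairs), and 9 at 1.5-fold. It was 2 with the deposited tables (nicotine against MLA kept on the common scale), where the mean level of Cxcl2 crossed the minimum. The limma count for 12 h against 1 h was 0, and 454 without nicotine. In the same limma fit the log2 fold turned to -0.16 for Cxcl1 and -0.0159 for Cxcl2 without PNU, and to -0.00325 for Csf1 without MLA. The count of genes spanning 2-fold was 6, and 3 to 6 without single libraries or pairs; these settings, and 2 others of this count (same total, 1.5-fold), were chosen after seeing the data. The cause of these moves was not tested, other than that a lower minimum admits more genes. For the span over the libraries, 31.9% of all genes passed at 1.5-fold beside 5.99% at 2-fold. The other counts at 1.5-fold are given without such a share and are not read as results about these genes. Of the other values, 23 counts and 113 folds stayed within their limits, 15 folds moved (all with PNU 30 min as the comparator) and 2 became significant, Ccl2 and Serpinb2 without nicotine. The planned edgeR fit was not run, since the read numbers are inferred from the levels. No paired analysis was possible because the labels give no replicate numbers, beyond the compound term of the limma fit; 0 genes were called for time with and without that term. Ccl7 and Cxcl2, with at most 120 reads in a library, are limited most by depth.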
